A study of Mus musculus with 4 samples.

Results

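Granule-stage immature neutrophils are the cells between the dividing granulocyte precursors and the mature neutrophils, and here they are 3188 of the 21367 barcodes of 2 growth plate libraries of the mouse. They were selected on their own RNA counts, as unique molecular identifiers (UMIs). A selected barcode had at least 200 genes, at most 20% mitochondrial UMIs, at least 150 UMIs of Ngp, Camp and Ltf per 10,000 and at least 1 UMI of Ly6g or Cd177. It also had fewer than 10 UMIs per 10,000 of the primary granule genes Mpo, Elane, Prtn3 and Ctsg, and 0 UMIs of Mki67, Top2a and Ebf1. The vehicle library gave 1491 such cells of 9560 barcodes and the 1NMPP1 library 1697 of 11807. The whole series holds 27654 barcodes.

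All 4 libraries share an engineered genotype, controls included: a kinase receptor on sensory neurons was altered so that the compound 1NMPP1 can inhibit it, so no group has the unchanged receptor. The physis had been injured 7 days before tissue was taken. One group of mice got 1NMPP1 by injection 48 h and 2 h before surgery at 17 µg per g and then at 40 µM in drinking water, and the other DMSO vehicle. The distal femur with its injured growth plate gave 1 library per treatment, and lumbar dorsal root ganglia, where the sensory neurons have their cell bodies, another pair. The labels name neither the age nor the sex nor the number of the animals, and no sort of cells is named. With 1 library per group no test between treatments can be made, and every interval given is a 95% interval that covers counting error only.

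Neutrophils make the proteins of their granules in waves while they mature in the marrow. Primary granules with myeloperoxidase and serine proteases come first, specific granules with lactoferrin and cathelicidin follow at the myelocyte and metamyelocyte stages, and gelatinase granules come last, as surface receptors for chemokines and growth factors appear. Cell division stops as specific granules are filled, and the factor C/EBP epsilon is known to drive the specific granule genes.

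Ngp (neutrophilic granule protein), Camp (cathelicidin) and Ltf (lactoferrin), the genes that define the cells, lie on chromosome 9 in the mm10 build (GRCm38), at 110419747 to 110423012 on the plus strand, 109847379 to 109849617 on the minus strand and 111019271 to 111042767 on the plus strand. Of 11 granule and surface genes looked up, 10 had a promoter in RefSeq (GRCm38.p6). Those of 5 genes are shown, the 3 that define the cells and Fcnb and Chil3, which were not used to define them and vary with their granule content. Each run is the stretch of the 250 bases before the RefSeq start that GENCODE M21 places outside the gene, from 5′ to 3′ on the gene's strand. It spans chr9:110419558-110419746 for Ngp, chr9:109849618-109849706 for Camp, chr9:111019042-111019270 for Ltf, chr2:28084886-28085128 for Fcnb and chr3:106167565-106167814 for Chil3. Capitals mark the C/EBP-type motif TTGCNNAA on either strand (TTNNGCAA when reversed).
Ngp: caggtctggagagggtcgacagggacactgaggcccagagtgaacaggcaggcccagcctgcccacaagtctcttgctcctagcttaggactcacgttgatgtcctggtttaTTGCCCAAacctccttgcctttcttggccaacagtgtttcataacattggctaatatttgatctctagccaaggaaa
Camp: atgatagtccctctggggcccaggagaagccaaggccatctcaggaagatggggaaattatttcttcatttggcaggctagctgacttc
Ltf: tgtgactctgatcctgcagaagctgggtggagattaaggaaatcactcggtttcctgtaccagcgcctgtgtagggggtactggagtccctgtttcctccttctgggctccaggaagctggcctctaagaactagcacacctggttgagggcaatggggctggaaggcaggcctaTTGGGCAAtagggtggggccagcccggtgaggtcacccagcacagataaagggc
Fcnb: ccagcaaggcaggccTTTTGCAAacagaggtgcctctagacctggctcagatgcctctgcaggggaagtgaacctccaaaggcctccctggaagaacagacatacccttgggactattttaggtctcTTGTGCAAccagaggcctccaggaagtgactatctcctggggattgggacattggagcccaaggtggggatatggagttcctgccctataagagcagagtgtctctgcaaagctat
Chil3: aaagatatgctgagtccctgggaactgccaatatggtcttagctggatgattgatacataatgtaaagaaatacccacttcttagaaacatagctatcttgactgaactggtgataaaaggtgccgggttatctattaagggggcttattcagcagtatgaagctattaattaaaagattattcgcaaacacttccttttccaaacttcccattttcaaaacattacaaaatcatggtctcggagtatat
Within the full 250 bases, Ngp and Fcnb each hold 2 such motifs, Ltf holds 1, and Camp and Chil3 hold none. Of 32851 RefSeq promoters of that length, 9.56% hold at least 1. The PU.1-type motif GAGGAAGT, which does not overlap the other, is in none of the 5 and in 2.44% of all. A match is a string of letters and no evidence of binding.

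The levels of the genes used for the selection are given as a description, since the rule set them. In CPM (UMIs of a gene scaled to a total of 1,000,000), Ngp stood at 28774 and 29848 (vehicle first, then 1NMPP1), Camp at 32411 and 29325 and Ltf at 11911 and 11802, and the 3 together made 7.31% and 7.10% of all UMIs. Lcn2, the iron-siderophore binder lipocalin-2, is a specific granule gene that was not part of the selection and stood at 12868 and 11745. The surface proteins Ly6g and Cd177 were both read in 91.3% and 92.1% of the cells, and the rule asks for only 1 of them. As a measure of background, which includes free RNA, cells of the B lineage in the same libraries (2044 and 2546 cells chosen on Ebf1, Cd79a and Cd79b) were read. There Ngp stood at 265 and 328 CPM, Camp at 321 and 406, Ltf at 89.0 and 118 and Lcn2 at 165 and 183.

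To compare shares of cells, each cell was thinned to 2000 UMIs, which left out 103 and 75 of the selected cells and 96 and 66 of the B-lineage cells. Lcn2 then had a UMI in 100% and 100% of the selected and 21.3% and 26.2% of the B-lineage cells, and Cd177 in 89.0% and 90.9% and 3.34% and 3.10%. Ly6g had one in 74.0% and 71.1% and 2.26% and 2.14%. Cebpe, the gene of C/EBP epsilon, was read in 37.2% and 40.1% of the thinned selected cells and 1.59% and 2.06% of the B-lineage cells, and Mmp9, gelatinase B, in 93.2% and 93.6% and 8.73% and 9.76%. Without thinning, Lcn2 was read in 99.9% and 99.9% of the selected cells, Cd177 in 98.6% and 99.1%, and Ly6g in 92.8% and 93.0%. Of these genes Ly6g and Cd177 were required by the rule. Lcn2, Cebpe and Mmp9, which were not, were each read in a larger share of the selected cells than of the B lineage, at median depths before thinning of 7889 and 7983 UMIs against 5876.5 and 7323.

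Markers of most other cells were low but not absent. The 7 monocyte markers summed to 138 and 139.6 CPM, below the 529.8 and 701 of the B lineage, and the 7 macrophage markers to 14.5 and 16.5. The 8 B-lineage markers summed to 69.0 and 106 against 14714 and 12988 in B-lineage cells, and Ebf1 was at 0 by the rule. The 6 mesenchymal and cartilage markers summed to 77.9 and 60.4 against 719 and 818. Erythroid markers stood apart between the libraries, at 2278 and 592 CPM for 7 genes, 4 of them globins, against 1018 and 1224 in B-lineage cells. With vehicle they were thus above the B lineage. Hbb-bs nevertheless had a UMI in similar shares of the thinned cells (19.7% and 19.7%). The 6 eosinophil markers summed to 42.8 and 47.8 against 24.4 and 94.3 in B-lineage cells. The 6 T and NK cell markers summed to 23.8 and 47.0 and the 5 dendritic cell markers to 23.4 and 35.2, both higher with 1NMPP1. Basophil and mast cell markers were lower with 1NMPP1, at 30.8 and 7.63.

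The selected cells held 7889 and 7983 UMIs at the median, 1999 and 2080 genes and 0.451% and 0.471% mitochondrial UMIs, so depth was alike in both libraries. The rule itself favours shallower cells, since a cell with more UMIs is more likely to show 1 of a gene that must be at 0. The cells it dropped for Mki67 or Top2a had 15587 and 15876.5 UMIs at the median, and those it then dropped for Ebf1 were 8.25% and 13.3% of the rest. Scrublet, a caller of doublets, placed 6.44% and 8.25% of the selected cells among its highest scores. The growth plate libraries shared 40 barcodes, of which 1 was selected in both. By Y-linked UMIs and Xist, 48.7% of the vehicle cells and 22.6% of the 1NMPP1 cells were called male and 9.93% and 27.8% female, so the sexes are mixed in unlike shares in the 2 libraries. The ganglion libraries had a like imbalance, with 49.1% and 19.6% male and 15.8% and 33.2% female among the cells that met the same criteria. Treatment and the make-up of the animals cannot be told apart from 1 library each.

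Granule content was spread broadly, with no gap at the selection threshold. It ran from 194 per 10,000 UMIs at the 5th percentile to 705 at the median and 1173 at the 95th in the vehicle library, and from 184 to 681 and 1137 in the 1NMPP1 library. Of the vehicle cells, 85 lay from 150 to 200, just inside the threshold, and 128 cells that met every other criterion lay from 100 to 150, just outside. With 1NMPP1 these were 122 and 178 cells. From just outside to just inside, Ltf stood at 1469 and 2669 CPM with vehicle and at 1279 and 2651 with 1NMPP1. Cxcr2, a chemokine receptor of mature neutrophils, stood at 815 and 801, and at 848 and 742. The lower edge is thus a line drawn through a continuous range of cells.

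**Figure D1:**
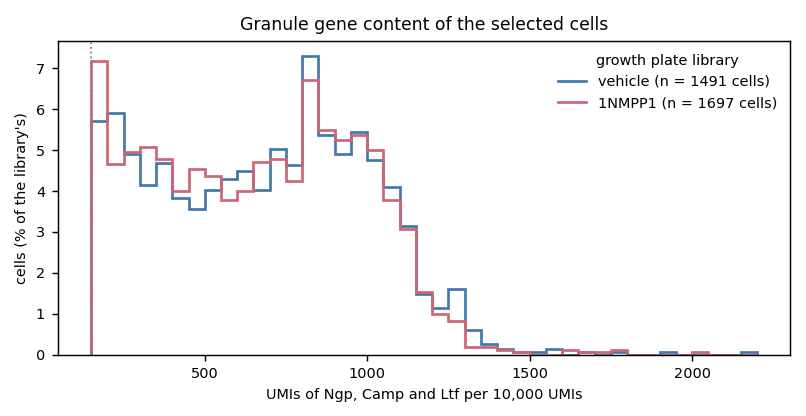
Granule gene content of the selected cells, as UMIs of Ngp, Camp and Ltf per 10,000 UMIs (x axis, bins of 50), against the share of each library's selected cells (y axis, percent). The dotted line is the threshold of 150, and both libraries spread from it to beyond 1000 with medians of 705 and 681.

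The selected cells were 15.9% (15.2 to 16.7) of the 9380 kept vehicle barcodes and 14.6% (13.9 to 15.2) of the 11634 kept 1NMPP1 barcodes, a log2 ratio of -0.12 (-0.23 to -0.023). Of the barcodes rich in S100a8 and S100a9, genes of the neutrophil lineage, they were 30.6% (29.3 to 31.9) and 29.4% (28.3 to 30.6), a log2 ratio of -0.055 (-0.16 to 0.047). Within female-called cells the share was 10.1% and 10.3%, and within male-called cells 15.5% and 13.6%. Cycling cells with the same granule content made 11.1% (10.4 to 11.7) and 9.57% (9.04 to 10.1) of kept barcodes, and cells rich in primary granule genes 3.65% (3.28 to 4.05) and 2.68% (2.40 to 2.99). Mature neutrophils, taken as Cxcr2-positive cells under the granule threshold, made 17.8% (17.0 to 18.6) and 17.9% (17.2 to 18.6). The early stages were thus each a smaller share in the 1NMPP1 library, by margins that a single library per group cannot place against animal-to-animal spread. All of these classes asked for 0 UMIs of Ebf1, and the cycling and primary granule classes can overlap. Before the Ebf1 step the selected cells were 1625 of 9380 and 1957 of 11634 kept barcodes, shares closer together than after it. That step dropped 8.25% of them with vehicle and 13.3% with 1NMPP1. In the ganglion libraries 114 and 184 cells met the criteria, 3.88% (3.21 to 4.64) and 8.36% (7.24 to 9.60) of kept barcodes, a log2 ratio of 1.10 (0.76 to 1.46). Among S100a8- and S100a9-rich ganglion barcodes the shares were 30.8% (26.1 to 35.8) and 39.4% (34.9 to 44.0), a log2 ratio of 0.35 (0.0079 to 0.70). The ganglion cells that met the criteria had 12198 and 7394 UMIs at the median, so there depth differed between treatments.

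Ordered by granule content, the cells ranged from ones with late granule and receptor RNA to ones with secretory RNA. Each library was cut into 4 bins of 372 to 425 cells, and the bottom and top bins were compared within a library. The order is set by Ngp, Camp and Ltf, so these values describe the selected cells and are no test. Over all 6336 genes with at least 200 UMIs, the median top-over-bottom log2 ratio was -0.11 and -0.067, and 0.017 and 0.056 with Ngp, Camp and Ltf left out of the total. Depth moved with the order too, from 6065 and 6242 UMIs per cell at the median in the bottom bin to 10230 and 10379 in the top.

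The 10 genes outside the rule highest in the top bin were chosen by the smaller of the 2 libraries' ratios. Orm1, the acute-phase glycoprotein orosomucoid, stood at 4.58, 22.1, 61.1 and 191 CPM from the bottom to the top bin with vehicle and at 3.88, 16.8, 68.2 and 194 with 1NMPP1, and its top-over-bottom log2 ratios were 5.32 and 5.58. Fcnb, the pattern-binding lectin ficolin B, went from 6.66 to 268 with vehicle and from 10.6 to 207 with 1NMPP1. Chil3, the chitinase-like protein Ym1, was by far the most abundant, at 528, 1716, 3633 and 5570.1 CPM with vehicle and 585, 1656, 3615 and 6093 with 1NMPP1. In all 3 genes each bin was above the one before it, in both libraries. Part of the last 500 bases of Orm1 and Chil3 transcripts is shared with sister genes (39.4% and 24.5% of 31-base words, with Orm2 and Orm3 and with Chil4 and a predicted gene), so their counts could be split between copies.

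Zmpste24, the zinc protease that trims prelamin A, went from 29.1 to 455 CPM with vehicle and from 25.8 to 448 with 1NMPP1. Ica1, a vesicle-associated protein, went from 8.74 to 178 and from 8.47 to 169. The remaining genes of the 10 were Lmo1, a LIM-domain regulator of transcription (3.76 and 3.45 on the log2 scale), Ada, adenosine deaminase (3.03 and 3.35), the cilium protein Tmem216 (4.35 and 3.97), the kinase anchor Akap11 (4.16 and 4.23) and the membrane-bending protein Fnbp1l (3.18 and 3.12). Cebpe, chosen after its values were seen, went from 112 to 417 CPM with vehicle and from 132 to 476 with 1NMPP1.

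The 10 genes lowest in the top bin included receptors, sensors and chemoattractants. Clec4d, a C-type lectin receptor, was lower in each successive bin, with 658, 382, 152 and 25.3 CPM in the vehicle library and 668, 329, 142 and 38.8 in the 1NMPP1 library. The chemokine Ccl6 stood at 348 in the bottom and 9.90 in the top bin with vehicle and at 435 and 22.1 with 1NMPP1. Nlrp3, the sensor of the inflammasome, stood at 153, 172, 49.7 and 3.30 from bottom to top with vehicle and 185, 113, 40.2 and 7.91 with 1NMPP1. The others were Acod1, which makes itaconate (-4.13 and -5.08 on the log2 scale), the lipase Pla2g7 (-4.85 and -4.81), the chemoattractant Prok2 (-4.71 and -4.85), the DNA sensor Ifi204 (-4.72 and -5.91), the stefin family members Stfa2l1 (-4.67 and -4.35) and Cstdc4 (-6.71 and -4.91), and the receptor Sirpb1b (-6.36 and -5.07). For Sirpb1b 71.7% of the transcript end is shared with sister genes.

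**Figure D2:**
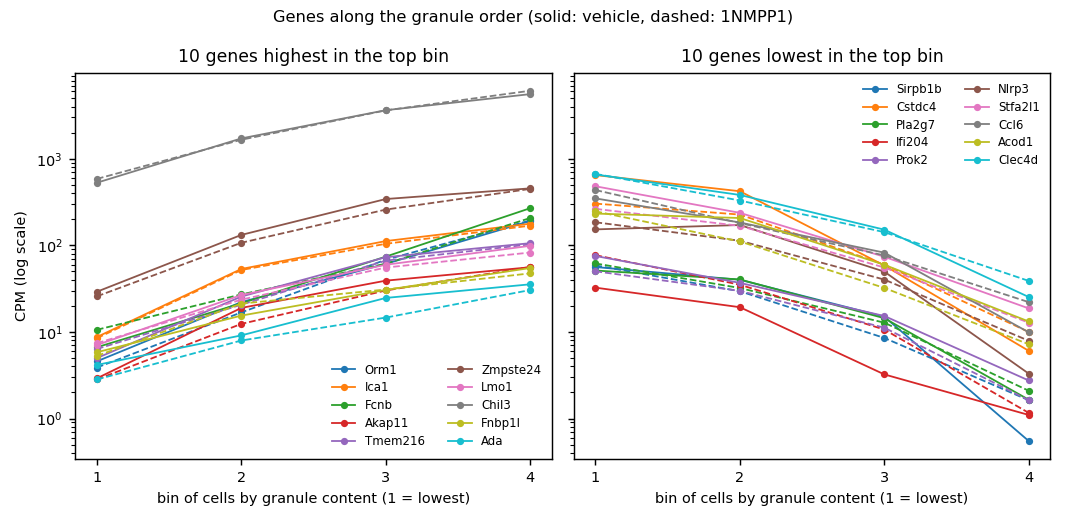
CPM (y axis, log scale) of the 10 genes highest and the 10 lowest in the top bin, by bin of granule content (x axis), solid for vehicle and dashed for 1NMPP1. Chil3 goes from 528 to 5570.1 in the vehicle library, and the 2 libraries run close together except for genes such as Cstdc4 and Ifi204.

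The same order was read in the ganglion cells, which had no part in choosing these genes. With 29 cells in the bottom and 28 in the top bin for vehicle and 46 in each for 1NMPP1, all 10 genes of the high side were higher in the top bin in both ganglion libraries and all 10 of the low side were lower. Orm1 had 0 UMIs in either bottom bin and 78 and 91 in the top bins. Fcnb had 0 and 0 against 99 and 93. Chil3 stood at 445 and 5814 CPM with vehicle and at 356 and 5719 with 1NMPP1. Cstdc4 had 57 and 142 UMIs in the bottom bins and 0 and 0 in the top ones. The labels do not say whether ganglia and growth plates came from the same animals.

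The gene lists followed the order by role. Of the gelatinase and late granule genes 8 of 9 were lower in the top bin in both libraries, with medians of -1.77 and -1.58. Retnlg, resistin-like gamma, stood at 27406, 14859.9, 6034 and 1598 CPM from bottom to top with vehicle, and Mmp8, neutrophil collagenase, at 4134, 3553, 2278 and 779.8. With 1NMPP1 they went from 28469 to 1733 and from 3986 to 988. Surface receptors of mature neutrophils were lower in 17 of 18 cases (medians -1.66 and -1.69), among them Cxcr2, at 692 and 112 with vehicle, and the growth factor receptor Csf3r, at 513 and 136. Inflammatory cytokine and NF-kB target genes were lower in 15 of 15 (medians -2.15 and -2.62), with Il1b at 1002 and 36.0 with vehicle and 959.7 and 65.6 with 1NMPP1.

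Interferon response genes were lower in the top bin in 19 of 20 (medians -1.53 and -1.56), immediate early genes in 15 of 16 (-1.48 and -1.52) and cell cycle exit genes in 7 of 8 (-1.43 and -1.18), with Btg2, an antiproliferative factor, at 802 and 139 CPM with vehicle. The opposite slope was found for secretory pathway and endoplasmic reticulum folding genes, higher in 14 of 15 (1.01 and 0.74), with the translocon subunit Sec61b at 196 and 374 with vehicle. It was also found for oxidative phosphorylation genes, 14 of 15 of which were higher (0.53 and 0.52). The NADPH oxidase list had medians of 0.13 and 0.11, while its catalytic subunit Cybb stood at 1214 and 2589. Over all genes 2315 of 6336 were higher in both libraries and 2971 of 6336 lower.

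Against cycling cells with the same granule genes (1037 and 1113 cells with Mki67 or Top2a), the selected cells had more of the late granule RNA. All 9 gelatinase and late granule genes were higher in both libraries (medians 1.89 and 1.62). Mmp8 stood at 434 against 2493 CPM with vehicle and 519 against 2701 with 1NMPP1, log2 ratios of 2.52 and 2.38. Retnlg gave 2.40 and 2.26, Mmp9 2.26 and 2.11, the ecto-enzyme Nt5e 2.41 and 2.17, the complement regulator Cd55 2.25 and 2.12 and the orphan receptor Gpr27 2.35 and 2.30. The rest of the 10 genes named by size were the receptors Acvrl1 (2.39 and 2.08) and Tarm1 (2.15 and 2.07), Prok2 (2.08 and 2.19) and Dmwd (2.14 and 2.16). Over all 9003 genes read the medians were -0.27 and -0.21.

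Genes of division were lower in the selected cells, and of these Mki67 and Top2a had been used to separate the cells. All 15 S phase genes (medians -4.35 and -3.87) and all 13 G2 and M phase genes (-5.39 and -5.08) were lower in both libraries. Cdca8, a subunit of the chromosomal passenger complex, stood at 168 against 1.14 CPM with vehicle and 149 against 2.52 with 1NMPP1. The spindle checkpoint kinase Ttk (-5.91 and -6.18), Prr11 (-6.46 and -6.46), the cytokinesis kinase Cit (-6.22 and -5.69), the replication factor Ticrr (-5.66 and -7.38) and 5 histone genes completed the 10. Nucleolar genes were lower in 9 of 9 (-1.87 and -1.63), oxidative phosphorylation genes in 15 of 16 (-0.84 and -0.79) and secretory pathway genes in 16 of 17 (-0.64 and -0.79). Over all genes 5096 of 9003 were lower in both libraries and 3220 of 9003 higher. The selected cells were also shallower than the cycling ones, at 7889 and 7983 against 16990 and 16102 UMIs at the median.

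Against mature neutrophils (1669 and 2078 cells), the genes that were higher with granule content were among the highest. The same granule sum separates these cells from the selected ones, and Cxcr2 was required of the mature cells. Genes high or low here therefore extend the granule order, and the overlap is a description and no test. Chil3 stood at 90.2 against 3155 CPM with vehicle and 181 against 3295 with 1NMPP1, and Orm1 gave log2 ratios of 5.66 and 5.38. Zmpste24 gave 4.58 and 4.47, Lmo1 4.48 and 4.58, Ica1 4.22 and 5.12 and Tmem216 4.61 and 4.16. Genes that had not been named along the order were the fatty acid receptor Ffar2 (3.90 and 3.73), the actin-nucleating formin Fmnl2 (3.86 and 3.93), the lactate dehydrogenase Ldhc (3.68 and 3.95) and R74862 (5.66 and 5.41).

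Lower than in mature cells were Il1b, at 5162 against 471 CPM with vehicle and 5137 against 415 with 1NMPP1, and the chemokines Cxcl2 (-3.49 and -3.73) and Ccl6 (-3.66 and -3.66). The tetraspanin Tspan13 (-3.56 and -3.49), Pla2g7 (-3.49 and -3.73), Lypd6b (-3.39 and -3.92), Fgl2 (-3.38 and -3.57), Sirpb1b (-3.37 and -3.48), the sialyltransferase St3gal6 (-3.34 and -3.59) and the adhesion adapter Cass4 (-3.42 and -3.34) made up the 10. All 17 inflammatory genes (medians -2.26 and -3.07) and all 16 immediate early genes (-1.58 and -1.58) were lower, as were 15 of 17 receptors (-0.88 and -0.90) and 21 of 23 interferon response genes (-1.09 and -0.94). Over all 7491 genes read the medians were -0.013 and 0.011, with 3349 lower in both libraries and 3331 higher. Mature cells were the shallower here, at 3969 and 4361.5 UMIs.

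**Figure D3:**
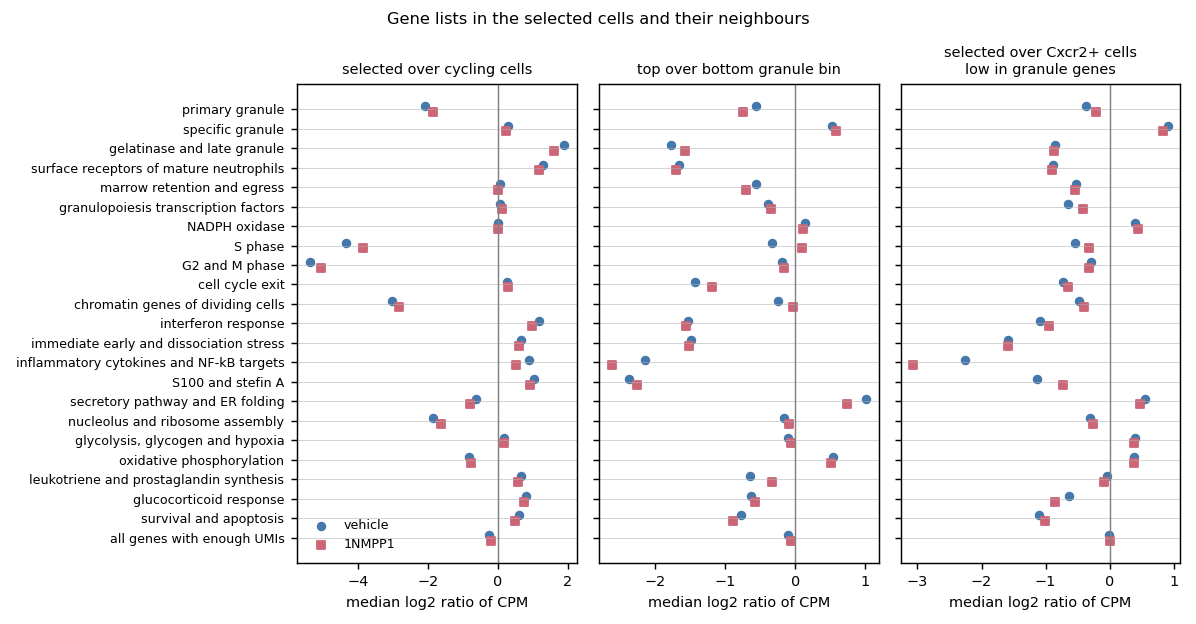
Median log2 ratio of CPM over the members of each gene list (x axis), for the selected over the cycling cells, for the top over the bottom granule bin and for the selected over Cxcr2-positive cells low in granule genes, with circles for vehicle and squares for 1NMPP1. The S phase and the G2 and M phase lists lie lowest in the first panel, and the inflammatory list lies lowest in the third at -2.26 and -3.07.

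Between treatments few genes differed by much in the selected cells. Of 6336 genes with at least 200 UMIs over both libraries, 98 were at least 1.5-fold higher with 1NMPP1 (1.55%) and 36 at least 1.5-fold lower (0.568%). The median log2 ratio was 0.068 and 68.4% of genes were higher, so a list's median is read against 0.068. The same median was 0.058 in male-called, 0.16 in female-called and 0.049 in ganglion cells. The 13 specific granule genes had a median of -0.0075, with 0 past the fold in either direction, Camp at -0.14 (-0.15 to -0.14) on the log2 scale, with its interval, and Ngp at 0.053 (0.046 to 0.059). The 9 gelatinase and late granule genes had a median of 0.057, Mmp8 at 0.12 (0.094 to 0.14) and Retnlg at 0.097 (0.087 to 0.11). Surface receptors (0.063, 18 genes), NADPH oxidase (-0.0038, 8), transcription factors of granulopoiesis (0.068, 12), marrow retention genes (0.15, 7), glycolysis (0.011, 19), oxidative phosphorylation (0.038, 15), leukotriene synthesis (-0.053, 7) and survival genes (0.11, 10) had 0 members past the fold.

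Interferon response genes were the list with the most members past the fold. All 20 members read were higher with 1NMPP1, 9 of them past 1.5-fold against 1.55% of all genes, with a median log2 ratio of 0.57. The list was already known to be higher in the neutrophils of these libraries, so this is a closer view of it and no separate evidence. Rtp4, an interferon-induced chaperone of receptors, stood at 32.4 and 70.7 CPM, a log2 ratio of 1.13 (0.96 to 1.30), and was read in 16.6% and 33.4% of cells. Its level in the B lineage was 7.90 and 13.5. Slfn5 (1.06, 0.75 to 1.39), Xaf1 (1.01, 0.68 to 1.36), Ly6e (0.98, 0.81 to 1.15), Oasl2 (0.78, 0.59 to 0.98), the antiviral enzyme Rsad2 (0.68, 0.51 to 0.85) and Zbp1 (0.77, 0.51 to 1.03) were past the fold too. For Ly6e, at 32.5 and 63.9, the B lineage had 668 and 688, far above the selected cells.

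The 2 most abundant members differed least. Ifitm3, a restriction factor of the cell membrane, stood at 931 and 1003 CPM (0.11, 0.072 to 0.14), and Slfn4 at 421 and 428 (0.024, -0.030 to 0.078). The transcription factors Irf7 and Irf9 lay between, at 0.55 (0.36 to 0.74) and 0.45 (0.30 to 0.61). Cells with at least 20 interferon UMIs per 10,000 were 40.0% (37.5 to 42.6) with vehicle and 54.4% (52.0 to 56.8) with 1NMPP1. The 5% of cells with the most interferon RNA held 18.1% and 18.6% of it. After thinning to 2000 UMIs, 49.6% and 58.8% had at least 4 interferon UMIs.

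The sexes did not behave alike. In the vehicle library 32.0% (28.6 to 35.5) of male-called and 63.5% (55.2 to 71.3) of female-called cells reached 20 interferon UMIs per 10,000, and in the 1NMPP1 library 56.5% (51.4 to 61.5) and 53.7% (49.1 to 58.3). The summed level went from 1846 to 2481 CPM in male-called cells and from 2443 to 2326 in female-called cells. The median over the 20 genes was 0.72 and 0.56, and in female-called cells Usp18 and Ly6e were higher while the more abundant Slfn4 and Ifitm3 were lower. Female-called vehicle cells numbered 148 and had more granule RNA (817 per 10,000 at the median against 691 in male-called ones). By the share of cells and the summed level, the difference between the sexes within the vehicle library was larger than that between the libraries. By the median over the 20 genes it was smaller. That median was 0.16 for female- over male-called vehicle cells, where all genes had -0.12, and 0.57 between the libraries. Sex and single animals cannot be told apart.

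By bin of granule content, the interferon median between treatments was 0.41, 0.43, 0.85 and 0.58 from bottom to top, with 18, 18, 20 and 19 of 20 genes higher. In other cells of the growth plate libraries the list was higher as well. Its median was 0.66 in cycling granule cells, 0.44 in mature neutrophils and 0.61 in the B lineage. The difference in the growth plate was thus not limited to the granule stage. B-lineage cells of the ganglia were mixed. In them Rtp4 stood at 16.0 and 12.2 CPM and Ifitm3 at 114 and 30.4, while Irf9 stood at 19.4 and 37.8 and Trim30a at 22.8 and 64.3. In ganglion cells that met the selection criteria, 19 of the 20 genes were higher (median 0.85). Rtp4 stood at 26.3 and 84.0 CPM in these cells and Ifit1 was the exception. There 41.2% (32.1 to 50.8) and 68.5% (61.2 to 75.1) of cells reached 20 interferon UMIs per 10,000, 30.4% of 56 male-called and 66.7% of 18 female-called vehicle cells, and 63.9% of 36 and 72.1% of 61 with 1NMPP1.

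**Figure D4:**
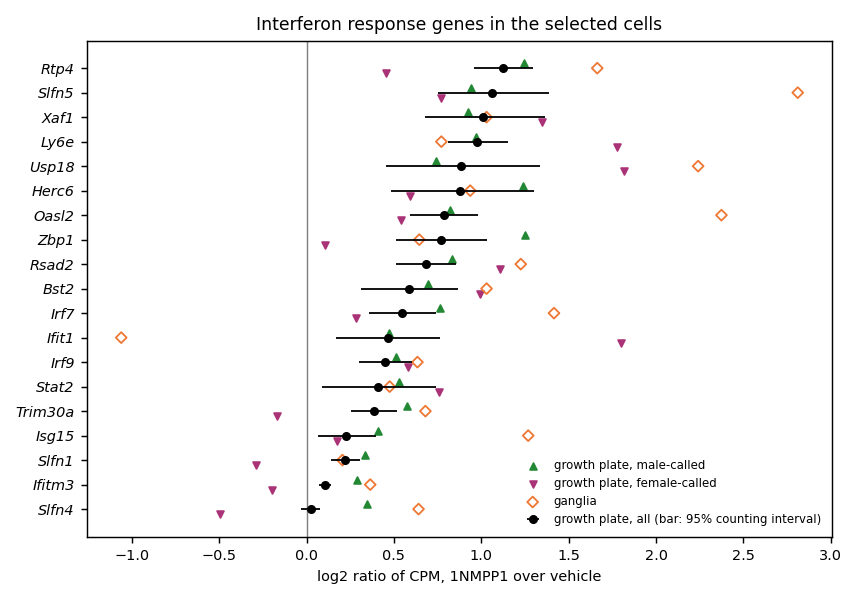
Log2 ratio of CPM, 1NMPP1 over vehicle (x axis), for 19 of the 20 interferon response genes (y axis), as dots with 95% counting intervals for all selected growth plate cells, triangles up and down for male- and female-called cells, and open diamonds for ganglion cells. All dots lie above 0, from 0.024 for Slfn4 to 1.13 for Rtp4, while 4 female-called values lie below it.

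Several lists had medians below the 0.068 of all genes. Those below 0 were the specific granule, NADPH oxidase, leukotriene, inflammatory, S100 and stefin A and secretory pathway lists. Secretory pathway genes were lower in 12 of 15 cases with a median of -0.11, none past the fold, with the chaperone Hsp90b1 at 136 and 103 CPM (-0.41, -0.51 to -0.31) and the disulfide isomerase Pdia6 at 26.0 and 20.0 (-0.38, -0.62 to -0.15). Their medians were -0.18 in male-called, -0.13 in female-called and -0.18 in ganglion cells. Hsp90b1 was lower in each of these, at -0.54, -0.41 and -0.49. Inflammatory genes had a median of -0.12 with 9 of 15 lower, which turned to 0.64 in female-called and 0.30 in ganglion cells. The chemokine Ccl3 stood at 35.0 and 18.9 (-0.89, -1.11 to -0.66) but was not lower within either sex call, at 0.30 (male) and 0.11 (female). Immediate early genes had a median of 0.11, with Fos at -0.17 (-0.21 to -0.13) and Klf4 at 0.69 (0.34 to 1.05), and of 0.60 in female-called cells.

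The 8 primary granule genes had a median of 0.40, but 4 of them were capped by the rule (Mpo, Elane, Prtn3 and Ctsg). Elane, neutrophil elastase, stood at 19.2 and 30.8 CPM in the selected and 361 and 554 in B-lineage cells. Genes of chromatin in dividing cells had a median of 0.26 with 8 of 11 higher, and of -0.18 in ganglion cells. The 2 past the fold were Hmgn2 and the tubulin regulator Stmn1 (0.59, 0.35 to 0.84). For Hmgn2 the vehicle library stands apart from the other 3 among cells of the selection criteria, though not among B-lineage cells. Glucocorticoid response genes had 0.19 (6 genes), cell cycle exit genes 0.12 (8), nucleolar genes 0.17 (4) and the 3 G2 and M phase genes read 0.23. The single S phase gene read, Pcna, was at 0.44 (0.23 to 0.65). In the S100 and stefin A list S100a8 and S100a9, the calprotectin subunits, were at -0.062 (-0.065 to -0.059) and -0.12 (-0.13 to -0.12). S100a8 stood at 139076 and 133259 CPM and S100a9 at 143831 and 132147. Stfa1, at -0.89 (-0.99 to -0.79), turned to 0.88 in female-called cells, and 45.9% of its transcript end is shared with other genes.

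Among the 12 genes with the largest ratios in each direction, several differed in B-lineage cells alike. Eno1, the glycolytic enzyme enolase, stood at 32.8 and 141 CPM, a log2 ratio of 2.11 (1.95 to 2.27), and at 18.3 and 82.1 in the B lineage. In the ganglion libraries it stood at 172 and 158 in cells of the same criteria, with no such gap. Hmgn2, a nucleosome-binding protein, behaved likewise, at 137 and 350.5 in the selected cells (1.36, 1.28 to 1.44), 166 and 446 in the B lineage and 503 and 509 in ganglia. Dynlt1f (1.45, 1.19 to 1.73) and Il31ra (1.74, 1.42 to 2.08) were also higher in the B lineage, by 0.96 and 1.07. Of the transcript ends of Eno1, Hmgn2 and Dynlt1f, 42.9%, 41.9% and 88.8% is shared with near copies, so their counts are uncertain, and the cause was not tested. Among cells of these criteria the vehicle growth plate library was the lowest of the 4 for all 3 genes, and the other 3 lay closer together. Dynlt1f stood at 12.4 and 34.1 in the growth plate and 37.6 and 39.8 in ganglia. In the selected cells these ratios thus rest on 1 library that stands apart. Among B-lineage cells the vehicle growth plate library was the lowest for Eno1 and Dynlt1f too. It was not for Hmgn2, which stood at 149 and 161 in B-lineage cells of the ganglia, and there the 1NMPP1 growth plate library, at 446, stood apart.

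Of the 98 genes on the high side, 93 could be read in the B lineage and 30 of these (32.3%) were past the fold there in the same direction, against 1.13% of all 6093 genes read in both. Of the 36 on the low side, 16 of 33 (48.5%) were, against 0.394%. In ganglion cells, 40 of 72 high-side genes with at least 20 UMIs were higher and 18 of 31 low-side genes lower. Of all 5956 genes read there, 3343 were higher with 1NMPP1, so by direction alone the high-side count was close to the background. Past the fold there in the same direction were 24 of the 72 and 14 of the 31. At least 1.5-fold higher there were 698 of all 5956 genes read, a smaller share than 24 of 72. For the low side no such background was counted. The genes past the fold in both the selected and the B-lineage cells included Xist on the high side and the Y-linked Eif2s3y, Uty and Ddx3y on the low side, beside the unlike shares of sex calls. They also included near copies on opposite sides. Eno1, Hmgn2 and Rpl10 were on the high side. On the low side were Eno1b, Rpl10-ps3 and a predicted gene that shares part of the transcript end of Hmgn2. Of the transcript end of Eno1b, 87.9% is shared with Eno1 and another gene. Ftl1-ps1 was on the low side too, and the cause was not tested.

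Ifi27l2a, an interferon-induced mitochondrial protein, differed alike in all of these cells, at 156 and 367 CPM in the selected cells (1.23, 1.16 to 1.31), 324 and 609 in the B lineage and 96.5 and 307 in ganglia. Ifi204 stood at 12.0 and 26.8 (1.15, 0.87 to 1.44), 5.94 and 11.7 and 8.52 and 16.4. Both were higher with 1NMPP1 in all 3 settings. For Ifi204 the ganglion value rests on 12 and 23 UMIs, with a log2 ratio of 0.91 (-0.12 to 2.08). In female-called growth plate cells it was 0.64 (-0.023 to 1.41), so both intervals span 0. Cpt1a, which carries fatty acids into mitochondria, stood at 15.9 and 32.5 (1.03, 0.78 to 1.28) and at 44.6 and 54.6 in the B lineage.

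S100a4 (1.56, 1.34 to 1.79), Crip1 (1.39, 1.22 to 1.57), Lgals1 (1.24, 0.95 to 1.54) and S100a10 (1.22, 0.94 to 1.53), genes of monocytes, lymphocytes and stroma, were all lower in the selected cells than in the B lineage. S100a4 stood at 17.1 and 50.4 CPM against 57.9 and 82.9, and Crip1 at 29.2 and 76.5 against 860.4 and 940.4. Of the transcript end of S100a4, 49.2% is shared with a predicted gene. In ganglia S100a4 went the other way, at 19.9 and 1.42. Without the cells of the highest Scrublet scores the log2 ratios were 1.47 for S100a4, 1.05 for Crip1, 0.79 for Lgals1 and 0.68 for S100a10, and for Lgals1 it was 0.093 after thinning. The T and NK and the dendritic markers were higher with 1NMPP1 too, and their part, like that of free RNA, was not tested.

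On the low side, Pde1c, a cyclic nucleotide phosphodiesterase, stood at 31.2 and 10.8 CPM (-1.53, -1.81 to -1.26) and at 29.1 and 11.7 in the B lineage, but at 29.1 and 45.5 in ganglia. Fn1, fibronectin, stood at 100.1 and 38.8 (-1.37, -1.52 to -1.22) and at 129 and 232 in the B lineage, where it was higher with 1NMPP1. Its log2 ratio was -2.95 in male-called and 1.91 in female-called cells, so no single direction holds, and -2.37 without the highest Scrublet scores. The matrix genes Mgp (-0.84, -1.11 to -0.58), Sparc (-0.53, -0.78 to -0.29) and Col2a1 (-0.53, -0.69 to -0.37) stood below their B-lineage levels, with Col2a1, the collagen of cartilage, at 56.6 and 39.2 against 597 and 695. In female-called cells the log2 ratios were -0.34 for Mgp, 0.14 for Sparc and -0.18 for Col2a1, each with an interval that spans 0. Ms4a3, a gene of early granulocyte precursors, stood below its B-lineage level too, at 19.4 and 13.6 (-0.51, -0.79 to -0.23) against 63.6 and 83.3.

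Neutrophil genes of the low side were Cstdc4, at 242 and 133 CPM (-0.87, -0.95 to -0.78), Stfa2l1, at 175 and 111 (-0.66, -0.76 to -0.57), and the skin-type protease Asprv1, at 76.2 and 52.5 (-0.54, -0.68 to -0.40). Their B-lineage levels were 43.2 and 34.3, 34.8 and 20.7 and 8.93 and 6.33. For Cstdc4 the log2 ratio was -0.049 in male-called cells, and for Stfa2l1 0.19 in female-called cells. In ganglia Cstdc4 was higher with 1NMPP1, at 51.8 and 110.3, Stfa2l1 stood at 128 and 116 and Asprv1 at 66.0 and 68.3. The last of the 12 were Fdps, of sterol synthesis (-0.83, -1.07 to -0.59), the calcium-binding Cib2 (-0.51, -0.71 to -0.32) and Ftl1-ps1, a ferritin copy (-1.16, -1.39 to -0.94), of whose transcript end 66.8% is shared with Ftl1 and others. The transcript ends of Fdps, Stfa2l1 and Cstdc4 are shared with other genes too, by 54.7%, 41.6% and 30.7%, so their counts are likewise uncertain.

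**Figure D5:**
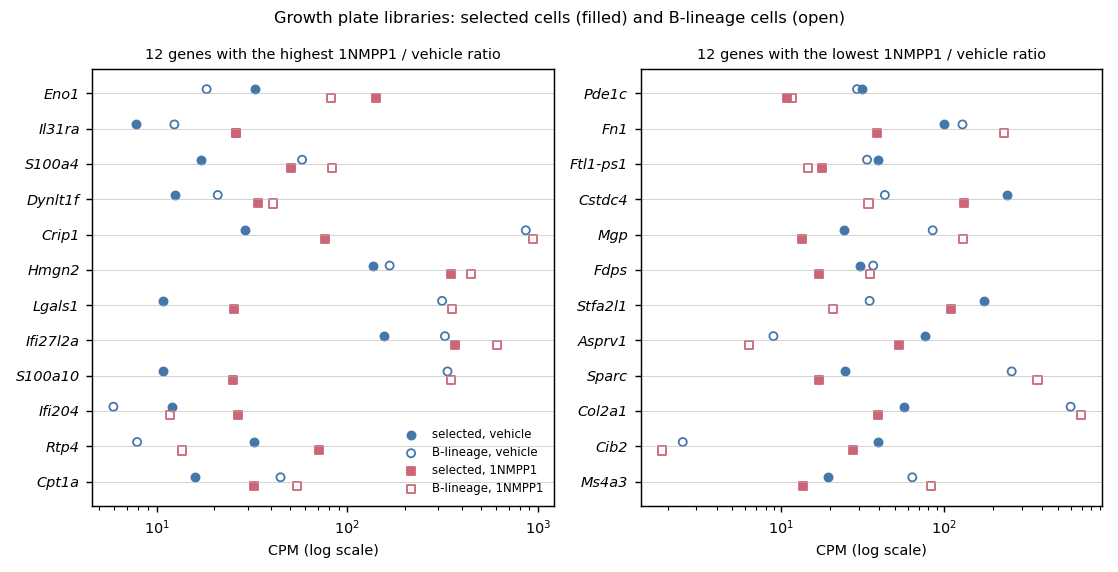
CPM (x axis, log scale) of the 12 top and 12 bottom genes by ratio between treatments (y axis), filled for the selected cells and open for B-lineage cells, circles for vehicle and squares for 1NMPP1. For Eno1, Hmgn2, Pde1c and Ftl1-ps1 the open symbols are spaced like the filled ones, and for Crip1, Lgals1 and Col2a1 the open symbols lie far to the right of them.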

How the data were processed

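Single-cell RNA was measured in 4 libraries with 1 library per group. The deposited files hold unnormalized UMI counts for each gene in each barcode. Per the file headers the authors' pipeline was Cell Ranger 7.2.0, and per the submitters' processing notes the genome was mm10. The labels name neither annotation release nor chemistry.

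UMIs were summed over the selected cells of a library and given as CPM, with exact Poisson intervals. Shares have exact Clopper-Pearson intervals, and ratios an exact conditional interval with 0.5 UMI added to each sum. Genes with at least 200 UMIs over both libraries were read. With 1 library per group there is no replicate check, and no test was made. Python 3.11.15, numpy 2.4.6, pandas 2.3.3, scipy 1.17.1, scanpy 1.11.5 and matplotlib 3.10.9 were used, and the scripts were tested on simulated data. B-lineage cells had at least 1 UMI of Ebf1 and 2 of Cd79a and Cd79b together. Cells rich in primary granule genes had at least 100 of their UMIs per 10,000.

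Genes named are the 12 highest and 12 lowest ratios among genes with at least 400 UMIs and a UMI in at least 10% of cells, up to 4 per list by UMIs and by ratio, and the 10 highest and 10 lowest by granule bin and against each neighbouring class. Others, such as Cebpe, Cxcr2, Csf3r, Btg2, Xaf1, Ly6e and Irf9, were chosen after their values were seen. The members and all lists were chosen with earlier results of these data known. One list member is not reported here by name. Alternatives covered doublets, shared barcodes, thresholds, sex calls, weighting, depth and the ganglion libraries.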

Additional observations from a re-analysis of the deposited data

Results flagged for a closer look

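The share of granule-stage cells differed in direction between the tissues. Its log2 ratio, 1NMPP1 over vehicle, was -0.12 in the growth plate and 1.10 in the ganglia, from 1 library per group in each tissue, and the difference was not tested. Among barcodes rich in S100a8 and S100a9 the ratios were -0.055 (-0.16 to 0.047) and 0.35 (0.0079 to 0.70). The ganglion cells had 12198 UMIs at the median with vehicle and 7394 with 1NMPP1.

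S100a4 had a log2 ratio of 1.56 in the growth plate cells and -3.51 in the ganglion cells, and Crip1 had 1.39 and -1.62. Pde1c had -1.53 and 0.64, and Cstdc4 -0.87 and 1.08. Fn1 differed between sex calls within the growth plate, at -2.95 in male-called and 1.91 in female-called cells. None of these differences was tested, and the cells behind them share a library.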

How the results depend on the processing

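No paired analysis was possible because each group holds 1 library. The log2 ratio of the share was 0.028 in female-called cells and 1.10 in the ganglion libraries, an alternative chosen after seeing the data. Under the other alternatives it lay between -0.19 and -0.055.

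Genes at least 1.5-fold higher numbered 52 in male-called cells, 211 in female-called cells, 40 after thinning to 2000 UMIs, 51 with a minimum of 400 UMIs and 52 in ganglia. Genes lower numbered 16 in female-called cells, 13 after thinning and 20 with 400 UMIs. Of the higher genes, 25 of 52 in male-called cells, 21 of 211 in female-called cells, 20 of 40 after thinning, 2 of 52 in ganglia and 69 of 84 without the highest Scrublet scores were among the 98. The minimum of 200 UMIs was applied to the ganglion counts here, against 20 UMIs for the 24 high-side genes past the fold in ganglia given above. The cause was not tested, except that thinning, the sex calls and the higher minimum leave fewer genes read. The ganglion cells also held fewer UMIs in all.

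The median over all genes was 0.16 in female-called cells, against which the values there are read. Signs were compared only for named genes past 1.5-fold and for list medians whose interval lay off 0, so sign changes of smaller ratios are left out. In female-called cells the sign differed for the inflammatory (0.64) and the S100 and stefin A (0.19) medians, Fn1 (1.91), Stfa2l1 (0.19), Ccl3 (0.11) and Stfa1 (0.88). In male-called cells it differed for Ccl3 (0.30). In ganglia it differed for the medians of primary granule (-0.13), marrow retention (-0.042), S phase (-0.050), chromatin (-0.18), inflammatory (0.30) and nucleolar genes (-0.44). It also differed there for Eno1 (-0.13), Il31ra (-0.18), S100a4 (-3.51), Crip1 (-1.62), S100a10 (-0.96), Pde1c (0.64), Cstdc4 (1.08), Stmn1 (-2.02), Klf4 (-1.82), Ccl3 (0.27) and Stfa1 (1.60). The other alternatives turned the sign of no named gene past 1.5-fold and of no list median whose interval lay off 0.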
